A study of Mus musculus with 26 samples.

Results

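The last step of CD8 T cell development in the thymus was examined in TG6 thymocytes, by comparing 2 libraries of late positive selection with 3 libraries of mature CD8 single-positive (CD8SP) cells. These 5 libraries of the 26 in the series were taken by their labels alone. Of the 46517 gene symbols in the table, 16372 reached a normalized count of at least 10 in at least 2 of the 26 libraries and were tested. TG6 mice carry rearranged transgenes for both chains of an MHC class I-restricted T cell receptor (TCR) of low self-reactivity. Both groups had the labelled genotype TG6tg H2b/d, from a cross of C57/BL6 with B6.C-H2d/bByJ, and TG6 mice were Rag-sufficient, so that endogenous receptor rearrangement remained possible. Late positive selection was sorted from thymus as CD4+CD8+CXCR4-CCR7+ and the mature stage as CD4-CD8+CXCR4-CCR7+. The study calls the libraries biological replicates, and its methods give 1 age range for all its mice other than neonates, but the sources used here tie no library to a mouse, so p-values measure the spread between libraries. The lines used for contrast were F5 on a Rag1-/- background, with an intermediate TCR, and OT-1 on a Rag2-/- background, with a receptor of high self-reactivity, each with 3 late and 3 mature libraries.

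A double-positive thymocyte that receives a TCR signal from self-peptide on MHC stops expressing the recombination machinery, exchanges the cortical chemokine receptor CXCR4 for the medullary receptor CCR7 and loses the coreceptor it does not need. The new CD8SP cell then matures in the medulla. There it acquires the trafficking receptors for exit to the blood, raises MHC class I and gains competence to divide and to respond to cytokines.

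Total normalized counts of the 5 libraries ranged from 16134786 to 18095503. Mature CD8SP replicate 3 stood apart from the other mature libraries. Across the tested genes, the Pearson correlation of log2(normalized count + 1) was 0.977 between mature replicates 1 and 2, 0.953 and 0.950 between replicate 3 and each of them, and 0.976 between the late libraries. Replicate 3 correlated with the late libraries at 0.916 and 0.915, whereas mature replicates 1 and 2 did so at 0.952 to 0.955. It was more than 1 log2 unit above the mean of the other mature libraries in 1635 genes and below it in 1944. The mitochondrial share was 3.29% in replicate 3, against 2.82% and 2.42% in the other mature libraries and 2.31% and 2.12% in the late ones. Counts and the changes of the genes described at length are therefore given with all libraries and without replicate 3.

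The labelled cell type was borne out by its markers. The 9 T cell markers summed to 95873 to 124585 normalized counts per library. Summed levels were at most 184 for 6 B cell markers, 82.7 for 7 macrophage or monocyte markers, 147 for 7 thymic epithelial markers, 281 for 6 erythroid markers, 24.9 for 6 NK cell markers and 47.7 for 4 NKT cell markers, and Ncr1 was at 0 in all 5 libraries. The 7 dendritic cell markers summed to 70.7 and 94.9 at the late stage and to 138, 150 and 276 in mature replicates 1, 2 and 3. Of the 6 of them tested, 3 were called higher with all libraries and 0 without replicate 3. Of the tested markers of the other types, 1 of 4 B cell, 1 of 4 epithelial and 1 of 1 NKT cell markers were called higher in both fits, and 0 of 6 macrophage, 0 of 5 erythroid and 0 of 2 NK cell markers were called in either. The 5 markers of CD4 or regulatory T cells summed to 849 and 823 at the late stage and to 593, 717 and 1418 in the mature libraries.

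The sorting markers followed the gates. Cd4 stood at 4084 and 4089 normalized counts in the late libraries and at 128.6, 77.07 and 460.7 in the mature ones. Cd8a, at 27012 and 24097 against 31943, 30826 and 21298, was not called (adjusted p = 0.6, and 0.065 without replicate 3). Cd8b1, encoding the other chain of the coreceptor, was not called with all libraries (adjusted p = 0.18) but was called higher without replicate 3 (log2 fold change 0.55 ± 0.13 SE, adjusted p = 0.004). Ccr7 and Cxcr4, on which the groups were gated alike, were not called in either fit (adjusted p = 0.31 and 0.23 with all libraries, and 0.4 and 0.31 without replicate 3).

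In all, 3655 genes were called between late positive selection and mature CD8SP at an adjusted p under 0.05 by limma, which is 22.3% of the genes tested. Of these, 2379 (14.5%) were higher and 1276 (7.79%) lower in mature cells. Changes of more than 2 log2 units were called for 512 higher and 111 lower genes. Without mature replicate 3, 2804 genes (17.1%) were called, 1840 (11.2%) higher and 964 (5.89%) lower. Counts of called list members below are to be read beside these shares. The fits shared 2500 genes and none of these changed direction. A further 1155 genes were called only with replicate 3 and 304 only without it. When the libraries were scaled to equal totals instead, the median of all genes moved from 0.00 to -0.11 and the calls split into 1919 higher and 1938 lower, so that the excess of higher calls depended on the scaling. In these bulk samples, fewer cells of a type and less RNA per cell cannot be told apart. Fold changes are log2 differences of log2(normalized count + 1), which understate the change of weakly expressed genes.

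**Figure D1:**
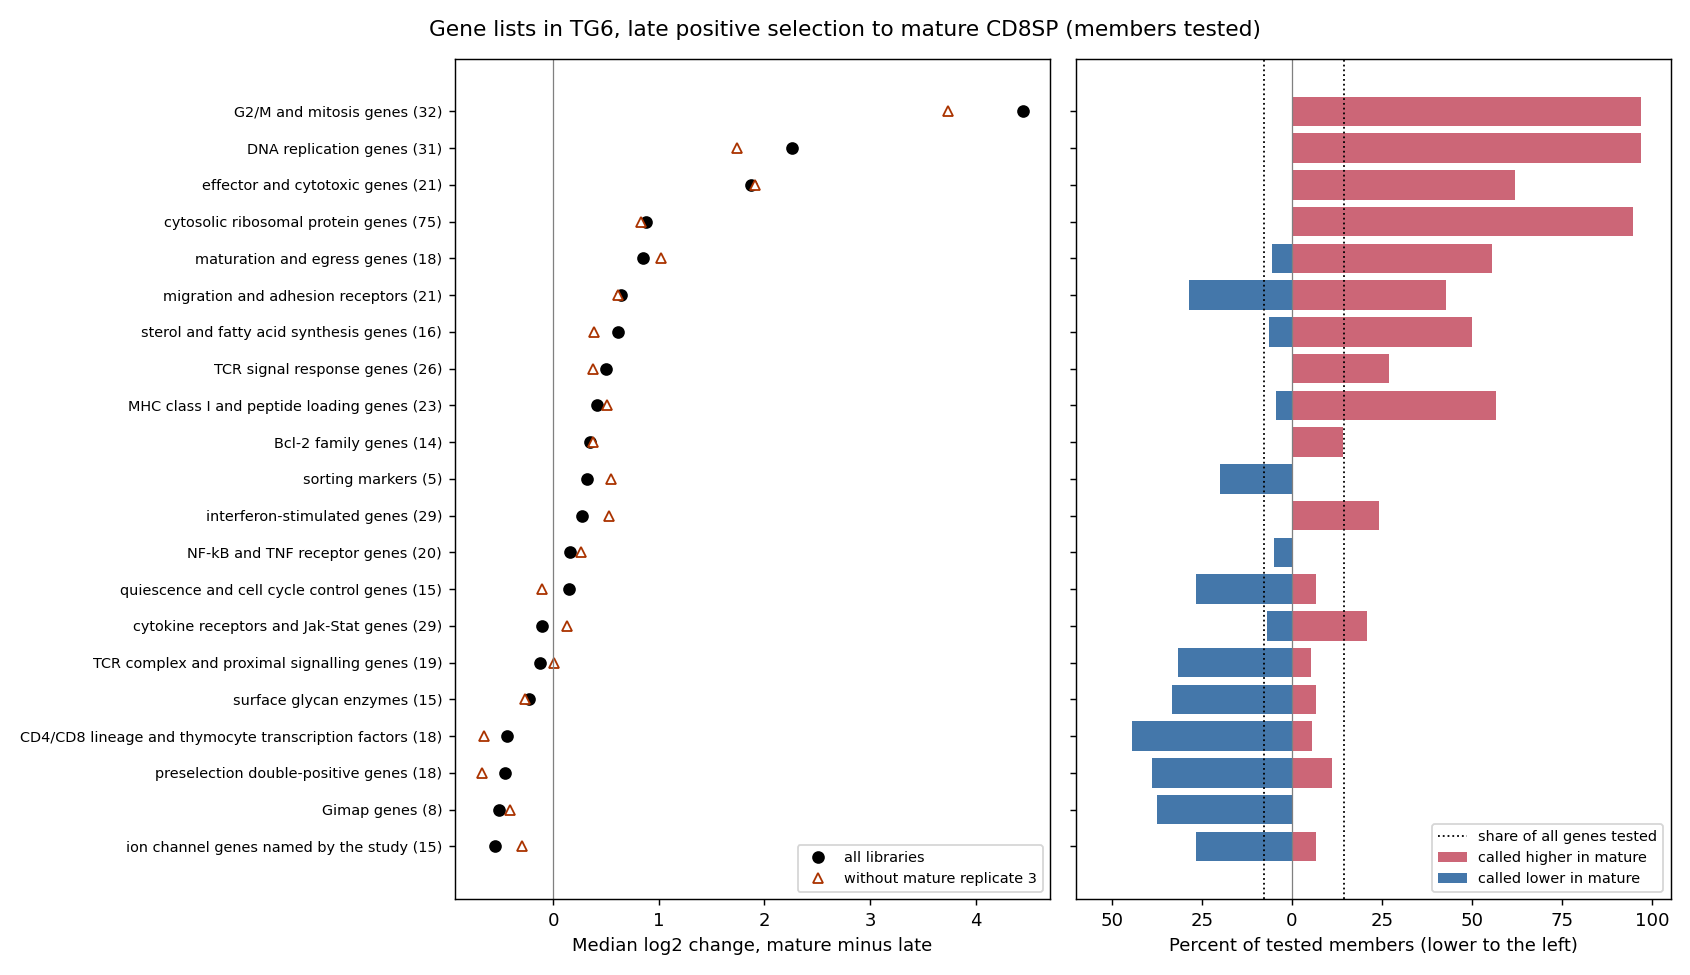
Left, median log2 change (mature minus late) of the tested members of each gene list, with all libraries (filled circles) and without mature replicate 3 (open triangles). Right, percent of tested members called higher (red) or lower (blue) with all libraries, with dotted lines at the 14.5% and 7.79% of all tested genes; cell division and effector lists have the highest medians in both fits, and the medians of the quiescence, cytokine receptor and TCR complex lists change sign without replicate 3.

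Genes of cell division showed the steepest rise. Of 32 genes for G2/M and mitosis, 31 rose, with a median log2 change of 4.44 beside 0.00 over all genes tested, and without replicate 3 the same number rose with a median of 3.74. Of 31 DNA replication genes, 30 rose in each fit, with medians of 2.26 and 1.74. Kif23, a motor of the midbody, was the mitotic gene not called, at 1567 and 1689 late against 1159, 1184 and 2033 mature. Replicate 3 lay above the mean of the other mature libraries for all 32 and all 31 genes. The G2/M list summed to 6722 and 6441 normalized counts in the late libraries, to 34994 and 38327 in mature replicates 1 and 2 and to 124478 in replicate 3. At early positive selection, the preceding stage, the sums were 86193 to 93304.

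Mki67, which encodes the proliferation antigen Ki-67, had 194.8 and 195.6 normalized counts in the late libraries and 6220, 7129 and 23175 in the mature ones. Late and mature libraries did not overlap, as in 8046 of the 16372 genes tested, and replicate 3 lay far above the other mature libraries. The log2 fold change was 5.68 ± 0.86 (SE, adjusted p = 5.8e-05), and 5.09 ± 0.91 without replicate 3 (adjusted p = 0.00042). Cenpf, encoding a kinetochore protein, had the largest log2 fold change among the named genes on the scale of log2(normalized count + 1), from 17.05 and 9.737 to 991.1, 1449 and 2728 (log2 fold change 6.82 ± 1.15 SE, and 6.43 ± 1.27 without replicate 3). The gene spans chr1:189640606-189688086 on the minus strand of GRCm38. Aurkb, the kinase of the chromosomal passenger complex at chr11:69045647-69051664, went from 4.85 and 5.972 to 354.9, 447.2 and 1637. Its log2 fold change was 6.65 ± 0.84 (SE, adjusted p = 7.9e-06) with all libraries and 5.97 ± 0.87 without replicate 3.

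The remaining named mitotic genes repeated this order, with the late libraries lowest and replicate 3 highest. Genes named for the largest changes had to have groups without overlap, so that for them the low late values were set by the choice. Ncapg, a condensin subunit, rose by 6.11 ± 0.98 on the log2 scale, Nusap1, a spindle protein, by 5.97 ± 0.87, and Espl1, the separase that cleaves cohesin, by 6.04 ± 1.04. Without replicate 3 these changes were 5.42, 5.30 and 5.46, and each was still called. Kif4, a chromokinesin, was at 10.34 and 6.674 late and 370.7, 358 and 1586 mature, 63.9-fold higher after adding 1 to each value and 39.2-fold without replicate 3. Pbk, a mitotic kinase, was at 1.845 and 2.698 at the late stage and at 186.6, 164.8 and 1362 in mature cells. Both late libraries were within the floor of 3 normalized counts, against which the mature mean was at least 190.0-fold higher, or at least 58.6-fold higher without replicate 3. Tnfrsf8, encoding the TNF receptor family member CD30, is no cell cycle gene but ranked beside them, at 1.019 and 1.023 late and 55.72, 66.63 and 593.8 mature, at least 79.6-fold higher than the same floor and at least 20.4-fold without replicate 3.

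In the replication list, Rrm2, a subunit of ribonucleotide reductase, went from 74.53 and 55.74 to 1253, 1188 and 6164. It was 32.0-fold higher after adding 1 to each value (adjusted p = 0.00011), with a log2 fold change of 4.22 ± 0.79 without replicate 3 (adjusted p = 0.00069). Tyms, the thymidylate synthase, rose by 4.03 ± 0.57, Cdc45, part of the replicative helicase, by 3.97 ± 0.53 and Lig1, the ligase that joins Okazaki fragments, by 3.70 ± 0.43, and without replicate 3 by 3.25, 3.27 and 3.04. Mcm5, a subunit of the same helicase, was at 740 and 810 late against 2523, 2661 and 7603 mature. Thus mature replicates 1 and 2 alone already stood above both late libraries for each of these genes.

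Many genes of the mitotic programme are controlled through CCAAT boxes, bound by NF-Y, and through the cell cycle homology region (CHR). Promoters of 3 of the mitotic genes are shown because the group moved together. Each line gives the 150 bases before the RefSeq start on GRCm38.p6, 5′ to 3′ on the strand of the gene, with CCAAT (or its complement ATTGG) and TTTGAA (or TTCAAA) in capitals. The windows are chr7:135716380-135716529 on the minus strand for Mki67, chr5:45669775-45669924 on the plus strand for Ncapg and chr1:189688087-189688236 on the minus strand for Cenpf.
Mki67: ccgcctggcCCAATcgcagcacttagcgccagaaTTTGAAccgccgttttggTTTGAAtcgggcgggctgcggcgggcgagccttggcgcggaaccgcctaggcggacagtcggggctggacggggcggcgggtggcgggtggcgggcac
Ncapg: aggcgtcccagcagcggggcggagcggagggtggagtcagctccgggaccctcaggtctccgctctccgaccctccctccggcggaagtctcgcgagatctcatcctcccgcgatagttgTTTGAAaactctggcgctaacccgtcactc
Cenpf: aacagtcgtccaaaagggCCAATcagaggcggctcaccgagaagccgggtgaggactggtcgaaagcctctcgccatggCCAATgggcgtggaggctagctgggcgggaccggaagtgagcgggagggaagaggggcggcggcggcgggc
Within 250 bases before the start and on either strand, CCAAT was found for 22 of the 26 G2/M genes matched in the RefSeq table (84.6%), against 33.8% of all 32851 promoters and 40.5% of the 10390 tested genes matched. TTTGAA was found for 10 of the 26 (38.5%), against 16% of all promoters and 13% of tested genes. These matches describe the letters of the windows and were not tested for binding.

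Genes of the preselection double-positive stage did not move together. Of 18 tested, 7 fell and 2 rose with all libraries (median -0.45), and 9 fell and 1 rose without replicate 3 (median -0.68). Spo11, known for its role in meiotic recombination, was at 1100 and 1054 late and 256.2, 265.2 and 259.8 mature, a log2 fold change of -2.04 ± 0.18 (SE, adjusted p = 1e-07), and -2.04 ± 0.20 without replicate 3. All 3 mature libraries agreed closely on it. Themis, a signalling adaptor of positive selection, fell from 10805 and 9961 to 6375, 6005 and 5504, and Plxnd1, a guidance receptor of double-positive cells, from 2243 and 2157 to 734.8, 378.5 and 807.5. Tdrd5, a Tudor domain protein of the germline, fell most, by 2.55 on the log2 scale, from 905.4 and 1243 to 231.9, 195.8 and 128.3. All 4 were called in each fit. Without replicate 3, Themis, Plxnd1 and Tdrd5 were at -0.75, -2.06 and -2.31.

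The genes of the list that rose were Rag1, of the recombinase, and Ptcra, the surrogate chain that pairs with TCRβ before the α chain is made. Rag1 was at 248.6 and 123.9 late and at 695.8, 619.9 and 5265 mature, far below its 51114 to 58364 at early positive selection. It was called with all libraries (log2 fold change 2.90 ± 0.98 SE, adjusted p = 0.038) and not without replicate 3 (1.90 ± 0.96, adjusted p = 0.2). Ptcra, at 13.7 and 7.864 against 94.92, 94.51 and 787.1, was called in both fits, at 4.08 and 3.07. Cd24a, the heat-stable antigen lost on maturation, showed how far replicate 3 decided the outcome, at 1912 and 1889 late and 904.8, 814 and 4540 mature. It fell without replicate 3 (log2 fold change -1.15 ± 0.26, adjusted p = 0.0037) and was not called with it (-0.35 ± 0.45, adjusted p = 0.64). Summed over the 18 genes, the late libraries held 31341 and 31597 normalized counts, mature replicates 1 and 2 held 19386 and 17368, and replicate 3 held 39085. The part of these transcripts in the higher cell division genes of replicate 3 was not tested.

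Replicate 3 was also the highest mature library for the summed markers of double-negative and γδ T cells, and the lowest for those of NKT cells (47.7, 36.6 and 14.8). The 4 double-negative markers summed to 1451 and 1363 late, 1165 and 1105 in mature replicates 1 and 2, and 3171 in replicate 3. Tcrg-C1, a constant segment of the γ chain of γδ T cells, was at 33.28 and 21.63 late and 69.68, 102.6 and 358 mature. The 5 γδ markers summed to 2021 to 3370 at the late stage and to 1863, 2001 and 4095 in mature replicates 1, 2 and 3, with 2 of 5 called higher and 0 lower with all libraries, and 0 higher and 1 lower without replicate 3. Their part in the results was not tested.

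**Figure D2:**
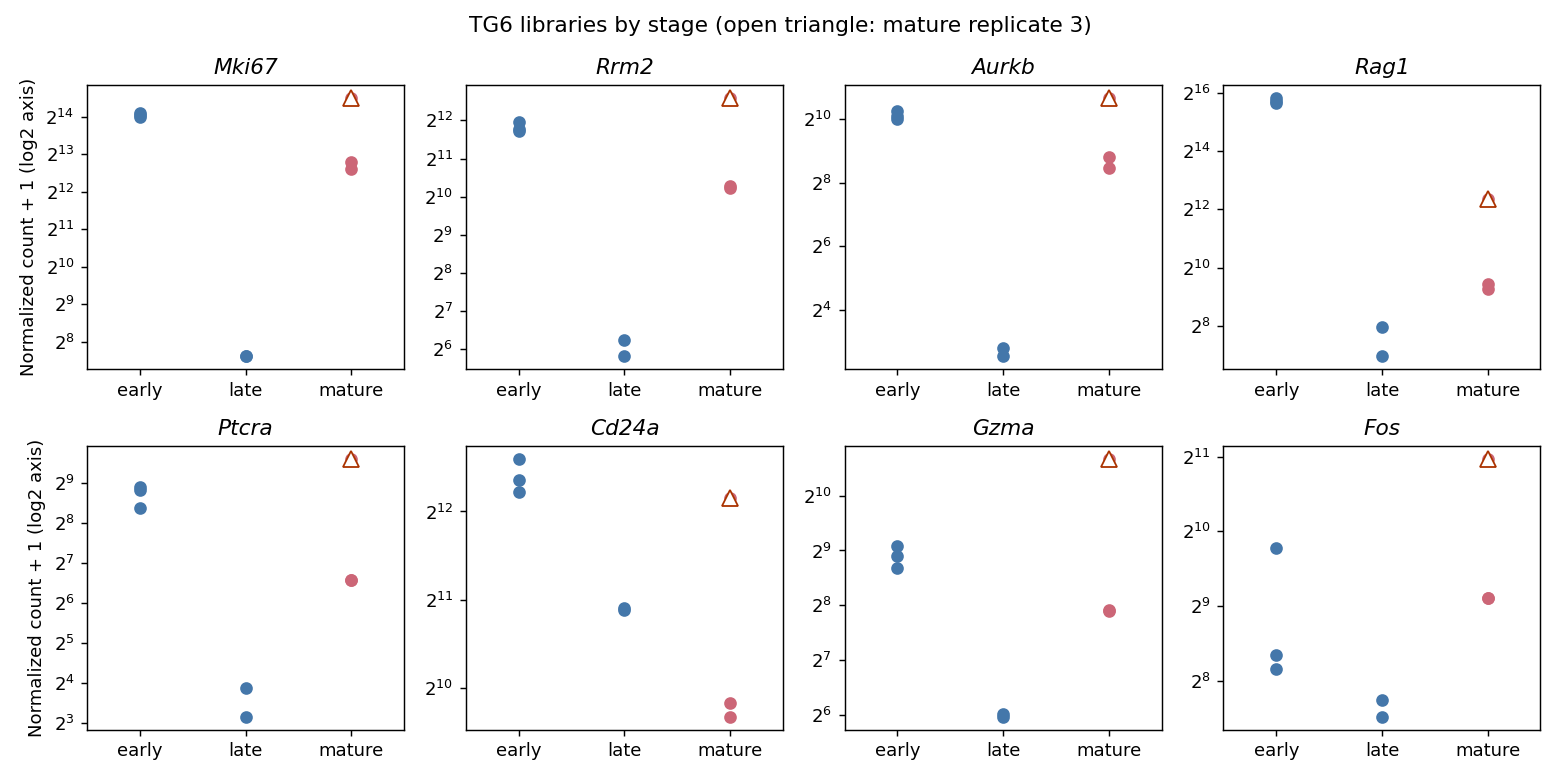
Normalized counts (log2 axis, after adding 1) in each TG6 library by stage, for Mki67, Rrm2 and Aurkb (division), Rag1, Ptcra and Cd24a (immature thymocytes), Gzma and Fos. Each point is a library and the open triangle is mature replicate 3, which lies above the other mature libraries in all 8 panels.

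Of the transcription factors of T lineage commitment and of the CD4/CD8 choice, more fell than rose. Of 18 tested, 8 fell and 1 rose with all libraries, and 8 fell and 0 rose without replicate 3. Satb1, the chromatin organizer of double-positive thymocytes, dropped from 65376 and 63642 to 22691, 20574 and 24568 (log2 fold change -1.52 ± 0.11 SE, adjusted p = 1.5e-08, and -1.58 ± 0.12 without replicate 3). The mature libraries were tight around this lower level. Runx1 fell from 3254 and 3327 to 1213, 1334 and 2115 (-1.13 ± 0.17, and -1.37 without replicate 3) and Tox, required for CD4 lineage development, from 5344 and 5265 to 2881, 2480 and 2301 (-1.06 ± 0.13, and -0.99). Zbtb7b, encoding ThPOK, the factor of the CD4 lineage, was low throughout, at 52.38 and 128.9 late and 9.277, 7.786 and 29.67 mature (-2.57 ± 0.79, adjusted p = 0.022, and -3.13 ± 0.82, adjusted p = 0.011 without replicate 3). Runx3, which drives the CD8 fate, was already at 4143 and 5643 at the late stage and at 3509, 4256 and 6235 in mature cells. These ranges overlapped and Runx3 was not called in either fit (adjusted p = 0.88, and 0.64 without replicate 3). Bcl11b, a T lineage identity factor, fell by 0.77 on the log2 scale, and by 0.70 without replicate 3.

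Genes of maturation and egress rose. Of 18 tested, 10 rose and 1 fell (median 0.85), and 11 rose and 1 fell without replicate 3 (median 1.02). Klf2 is the transcription factor that activates the exit programme. It was at 744.9 and 743.1 in the late libraries and at 5883, 6993 and 5776 in the mature ones, a log2 fold change of 3.06 ± 0.56 (SE, adjusted p = 0.00045), and 3.11 ± 0.63 without replicate 3 (adjusted p = 0.0014). S1pr1, the sphingosine 1-phosphate receptor that draws mature thymocytes into the blood and a target of Klf2, rose from 1431 and 869.9 to 7746, 7883 and 5543 (2.64 ± 0.48, adjusted p = 0.00041, and 2.81 ± 0.53 without replicate 3). For both genes replicate 3 was the lowest mature library but still above both late ones. Il7r, the receptor chain for the survival cytokine IL-7, was not called (0.62 ± 0.49, adjusted p = 0.4, and adjusted p = 0.37 without replicate 3). Slfn2, a quiescence gene, was the member that fell (-0.64 ± 0.15, adjusted p = 0.004, and -0.55 without replicate 3).

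Ly6c2, a surface marker of mature and memory CD8 T cells at chr15:75108158-75111970, was at 6.754 and 11.14 late and at 331.6, 406.2 and 505.9 mature. Its log2 fold change of 5.40 ± 0.47 (SE, adjusted p = 1e-07) became 5.25 ± 0.52 without replicate 3. H2-Q7, a nonclassical MHC class I gene of the Qa-2 group, rose from 1475 and 2223 to 10478, 14394 and 7547 (2.53 ± 0.31, adjusted p = 5.9e-06, and 2.76 ± 0.32 without replicate 3). Both belong to families of near-identical copies, so reads may be divided between Ly6c1 and Ly6c2 or among H2-Q genes, and single values are uncertain.

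**Figure D3:**
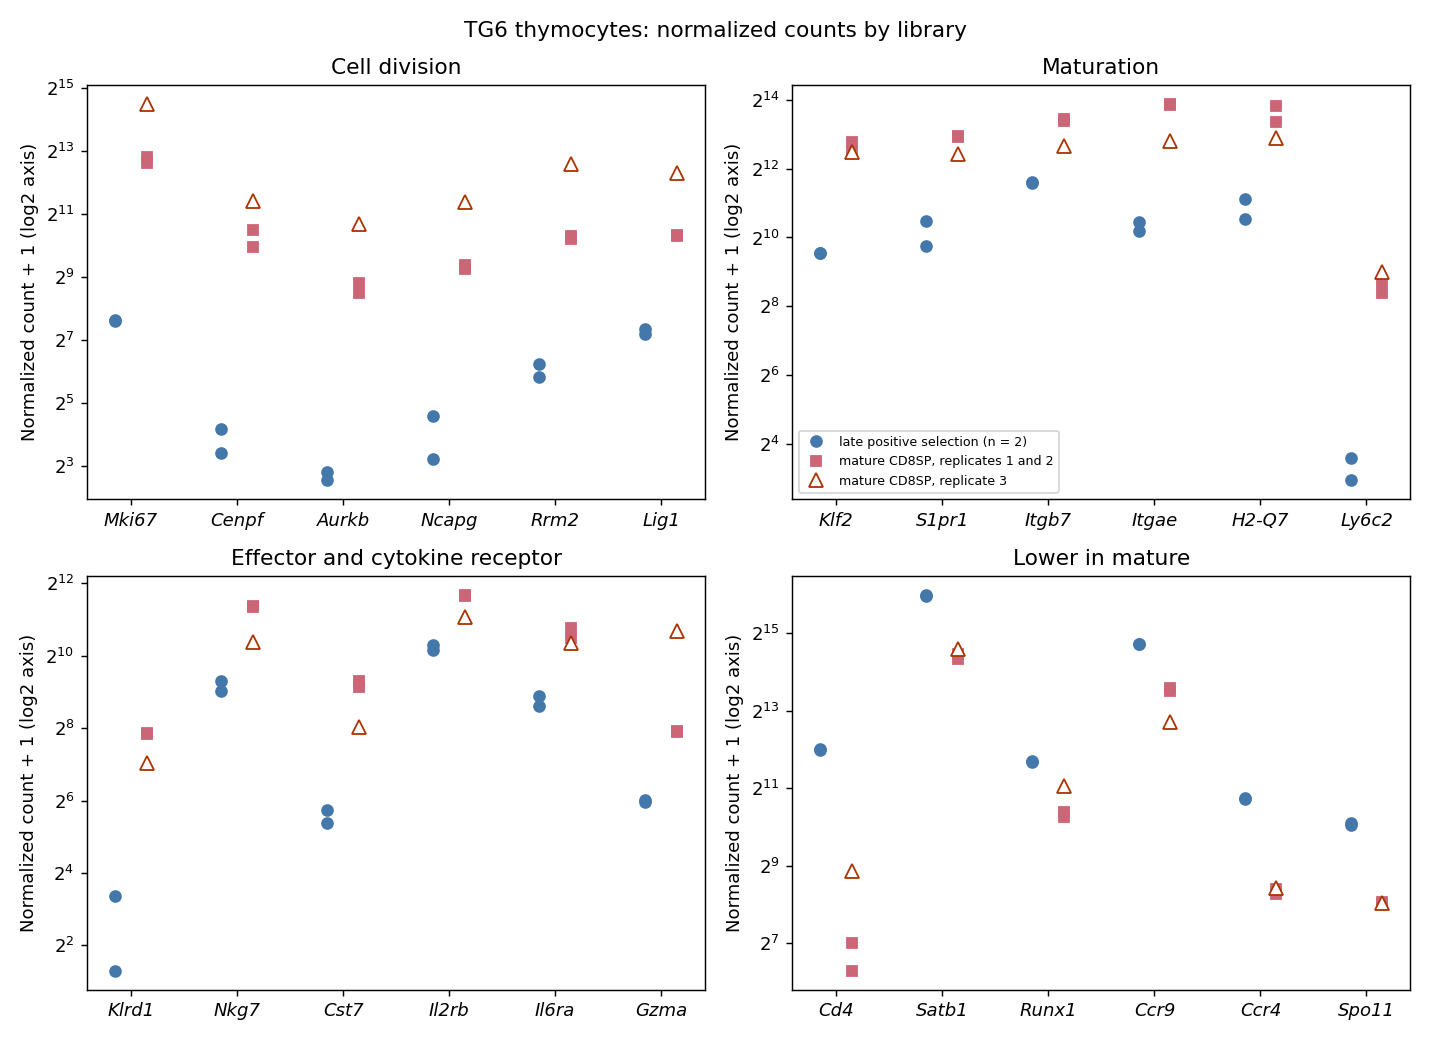
Normalized counts (log2 axis, after adding 1) of 24 genes in the 2 late libraries (blue circles), mature replicates 1 and 2 (red squares) and mature replicate 3 (open triangles). Replicate 3 is the highest library for each cell division gene and for Gzma, and lies between the late libraries and the other mature ones for S1pr1, Itgb7, Itgae, Nkg7 and Cst7.

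Trafficking receptors moved in both directions, with 9 of 21 higher and 6 lower, and 8 and 6 without replicate 3. Itgae, the αE chain (CD103) that binds E-cadherin, rose from 1410 and 1173 to 15118, 14861 and 7112. The log2 fold change was 3.18 ± 0.49 (SE, adjusted p = 7.4e-05), and 3.54 ± 0.52 without replicate 3. Its partner Itgb7 rose by 1.56 ± 0.19, and by 1.81 without replicate 3. Among chemokine receptors, Ccr4 fell from 1691 and 1718 to 339.3, 308.9 and 345.2 (-2.36 ± 0.19, adjusted p = 3e-08) and Ccr9, the thymic and gut homing receptor, from 27147 and 27105 to 12348, 11636 and 6657 (-1.46 ± 0.20, adjusted p = 1.6e-05). Without replicate 3 they were at -2.39 and -1.18. Cxcr3, an inflammatory homing receptor, was at 0 in both late libraries and at 11.11, 12.19 and 16.77 in the mature ones, at least 4.45-fold above the floor of 3, or 3.88-fold without replicate 3.

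Among effector genes none fell. Of 21 tested, 13 rose in each fit, with medians of 1.88 and 1.91. Klrd1, encoding the CD94 receptor chain, was at 9.251 and 1.454 late and 229.6, 230.7 and 129 mature (log2 fold change 5.25 ± 0.58 SE, adjusted p = 1.6e-06, and 5.53 ± 0.63 without replicate 3). Cst7, cystatin F, an inhibitor of granule proteases, rose from 52.86 and 40.3 to 627.1, 559.9 and 262.4 (3.26 ± 0.61) and Nkg7, a granule protein, from 628.4 and 517.1 to 2666, 2597 and 1328 (1.88 ± 0.40). In these genes replicate 3 was the lowest mature library, and without it Cst7 and Nkg7 were at 3.65 and 2.20. Gzma, granzyme A, had the reverse order, at 61.67 and 63.89 late and 236.3, 239.8 and 1633 mature, and its log2 fold change of 2.83 became 1.91 without replicate 3, called both times. Eomes and Tbx21, the T-box factors of effector and memory cells, were called higher at low levels in both fits, Eomes at 6.788 and 3.218 against 38.44, 46.41 and 25.16, and Tbx21 at 0 in the late libraries against 5.049, 6.097 and 16.77.

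Cytokine receptor and Jak-Stat genes gave 6 higher and 2 lower of 29, and 7 and 2 without replicate 3. Over all genes tested, 14.5% were called higher and 7.79% lower, and 11.2% and 5.89% without replicate 3. With total scaling the split was 5 and 4 and with quantile normalization 5 and 5, so that the excess of higher calls depended on the scaling. The list's median changed sign between the fits, from -0.10 to 0.13, and both lay near that of all genes. Il2rb, the β chain shared by the IL-2 and IL-15 receptors, rose from 1150 and 1248 to 3215, 3303 and 2151 (log2 fold change 1.24 ± 0.34 SE, adjusted p = 0.01). Il6ra, the IL-6 receptor, rose from 476.2 and 392.9 to 1448, 1737 and 1300 (1.78 ± 0.30), and Il27ra by 0.95 ± 0.16. Il10ra fell by 1.06 on the log2 scale, from 557.8 and 469.8 to 232.9, 257.6 and 245.2. Each of the 4 was also called without replicate 3, Il2rb at 1.44, Il6ra at 1.87, Il27ra at 1.21 and Il10ra at -1.06.

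Of 23 genes for MHC class I and peptide loading, 13 rose and 1 fell, and 16 rose and 1 fell without replicate 3. H2-K1, a classical class I heavy chain, was at 6826 and 9176 late and 21960, 24661 and 14616 mature (log2 fold change 1.33 ± 0.18 SE, adjusted p = 1.6e-05, and 1.56 ± 0.16 without replicate 3). H2-T22, a nonclassical class I gene, rose from 1843 and 2079 to 3888, 4375 and 6129 (1.27 ± 0.14, adjusted p = 1.1e-06, and 1.07 ± 0.11 without replicate 3). B2m, the light chain of class I molecules, depended on replicate 3, at 14058 and 15809 late and 26720, 28405 and 10716 mature. It was not called with all libraries (adjusted p = 0.28) and was called higher without replicate 3 (0.89 ± 0.17, adjusted p = 0.00097). TG6 mice carry H2b and H2d haplotypes while the reads were aligned to the C57BL/6 genome, which is H2b, so levels of H2 genes rest on how reads of the H2d alleles aligned.

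Interferon-stimulated genes rose in part, 7 of 29 with all libraries and 10 without replicate 3, with none lower, beside 14.5% and 11.2% of all genes tested called higher in these fits. Without replicate 3 the median was 0.53 and with it 0.27. Ifit3, an antiviral protein of the IFIT family, was at 171.3 and 161.2 late and at 860.4, 1088 and 451.8 mature, a log2 fold change of 2.17 ± 0.39 (SE, adjusted p = 0.00036). Ifi27l2a rose from 343.6 and 340.1 to 1452, 1664 and 1224 (2.07 ± 0.31, adjusted p = 6.4e-05). Oas1a, a sensor of double-stranded RNA, rose by 1.29 ± 0.44 and Bst2, encoding tetherin, by 0.83 ± 0.19. Without replicate 3 the 4 changes were 2.53, 2.18, 1.47 and 0.92, each called. Replicate 3 was the lowest mature library in all 4, and it lay above the mean of the other mature libraries for 1 of the 29 genes. With total scaling 5 of the 29 were called.

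The interferon-stimulated response element (ISRE) is the site through which interferon activates such genes. Promoters of 3 members that rose are shown, chosen because the window holds a match, as above with 150 bases before the start, and stretches of TTTC, any 2 bases and TTTC again, on either strand, are in capitals. The windows are chr19:34583379-34583528 on the plus strand for Ifit3, chr8:71537473-71537622 on the minus strand for Bst2 and chr5:120907526-120907675 on the minus strand for Oas1a.
Ifit3: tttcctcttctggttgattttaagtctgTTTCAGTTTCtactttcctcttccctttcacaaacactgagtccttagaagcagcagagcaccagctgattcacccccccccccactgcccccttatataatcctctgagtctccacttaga
Bst2: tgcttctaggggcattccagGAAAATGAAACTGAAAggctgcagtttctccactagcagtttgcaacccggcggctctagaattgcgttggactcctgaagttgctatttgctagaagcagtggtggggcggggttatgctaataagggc
Oas1a: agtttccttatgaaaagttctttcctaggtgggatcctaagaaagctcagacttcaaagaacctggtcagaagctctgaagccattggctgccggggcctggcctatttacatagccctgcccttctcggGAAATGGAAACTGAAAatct
In Bst2 and Oas1a overlapping matches merge into 1 run of capitals. Irf7 and Lgals3bp, which also rose, had no match in this window. Ifi203, which rose too, has 2 RefSeq windows, 1 with a match and the other without. The motif was found within 250 bases before the start for 10 of the 20 interferon-stimulated genes matched in the RefSeq table (50%), against 2.98% of all promoters and 3.21% of tested genes. This share describes the list, of which 22 of 29 members were not called with all libraries, and does not mark those that rose. The matches were not tested for binding.

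TCR signal response genes rose in 7 of 26 cases and fell in none, with 5 higher without replicate 3 (medians 0.50 and 0.38), beside the same 14.5% and 11.2% of all genes tested. Cd5, an inhibitory receptor whose level tracks TCR signalling, was at 1550 and 1703 late and 3302, 2877 and 2952 mature (log2 fold change 0.90 ± 0.21 SE, adjusted p = 0.003). Cd69 rose from 688 and 724.3 to 1476, 1840 and 1283 (1.10 ± 0.35), Dusp2, a phosphatase of MAP kinases, by 1.58 ± 0.33 and Myc by 1.33 ± 0.39. These 4 were called in both fits, at 0.92, 1.22, 1.82 and 1.44 without replicate 3. Replicate 3 was the highest mature library for Fos and Nr4a1 and the lowest for Egr1, all immediate early genes. Fos, at 182.8 and 213.5 late and 551.3, 550.3 and 2008 mature, was called only with all libraries (adjusted p = 0.023, and 0.13 without replicate 3). Each mature library, replicates 1 and 2 included, still lay above both late ones. Nr4a1, encoding Nur77, was at 1428 and 1864 late and 1063, 987.8 and 6859 mature, and its difference changed sign between the fits without being called in either (0.24 and -0.67). Egr1, at 895.2 and 900.9 against 785.8, 666.2 and 458.2, was not called.

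Of 19 genes for the TCR complex and its proximal signalling, 6 fell and 1 rose, and 5 fell and 1 rose without replicate 3. Beside these, 7.79% of all genes tested were called lower and 14.5% higher, and 5.89% and 11.2% without replicate 3. Lcp2, the adaptor SLP-76, fell from 10871 and 12668 to 8186, 7160 and 5417 (log2 fold change -0.78 ± 0.16 SE) and Cd247, the CD3 ζ chain, from 7724 and 8225 to 6008, 5779 and 4960 (-0.52 ± 0.11). Without replicate 3 they were at -0.62 and -0.44. The list's median was -0.13, and 0.01 without replicate 3.

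Cytosolic ribosomal protein genes rose together. Of 75 tested, 71 rose in both fits, with medians over the list of 0.88 and 0.83, and the 71 changed by 0.61 to 1.22 with all libraries. Rpl32, of the large subunit, was at 7529 and 7091 late and 15836, 14922 and 18396 mature (log2 fold change 1.16 ± 0.09 SE, adjusted p = 3.2e-08, and 1.07 ± 0.09 without replicate 3). All 3 mature libraries lay about equally high. With total scaling 71 genes were still called, with a median of 0.77. Ribosomal protein genes have many processed copies in the genome, among which reads may be divided.

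Sterol and fatty acid synthesis genes gave 8 higher and 1 lower of 16, but 3 and 1 without replicate 3 and 6 and 1 with total scaling. Idi1, an isomerase of the mevalonate pathway, stood at 271.3 and 226.4 late and 500.8, 489.8 and 1518 mature and was called in both fits. Of the 8 Gimap genes, GTPases of lymphocyte survival, 3 fell in each fit and 1 rose without replicate 3, among the falls Gimap6, from 16195 and 16721 to 9624, 8758 and 7091 (-0.97 ± 0.22, and -0.84 without replicate 3). Of 14 Bcl-2 family genes, 2 rose and 0 fell, no more than the share of all genes tested, and 3 rose and 1 fell without replicate 3. Bid, a proapoptotic member, rose from 157.5 and 143.2 to 486.7, 375.8 and 1011 (1.92 ± 0.26) and was called in both fits. Bcl2, the survival factor, was not called with all libraries (adjusted p = 0.25) and was called higher without replicate 3 (0.55 ± 0.18, adjusted p = 0.044).

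Of 15 ion channel genes that the study discusses, and which it picked from these libraries, 4 fell and 1 rose, and 4 fell and 0 rose without replicate 3. Cacnb3, a β subunit of voltage-gated calcium channels, fell from 433.6 and 565.1 to 86.59, 130.2 and 87.34 (-2.30 ± 0.25, adjusted p = 1.6e-06, and -2.21 ± 0.28 without replicate 3). Kcna2, a potassium channel, at 3873 and 3654 against 3202, 3034 and 1222, was not called (adjusted p = 0.094, and 0.51 without replicate 3). Tmie was not called either (adjusted p = 1, and 0.56). Surface glycan enzymes gave 1 higher and 5 lower of 15, and 2 and 3 without replicate 3, St3gal2, a sialyltransferase, falling most (-2.13 ± 0.32). Of 15 genes for quiescence and cell cycle control, 4 fell and Klf2 rose in each fit, with 3 of the falling genes shared between the fits, and 7 fell with total scaling. Of 20 genes for NF-kB and TNF receptors, Cd27 alone was called, falling by 0.84 on the log2 scale. The shares of all genes tested beside these 4 lists were 14.5% higher and 7.79% lower, and 11.2% and 5.89% without replicate 3.

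Besides Cd4, on which the groups were sorted, most of the largest falls were in genes outside the lists. Nav2, encoding a neuron navigator protein at chr7:48908716-49610090, was at 2612 and 2341 late and 324.2, 263 and 252.4 mature (log2 fold change -3.15 ± 0.21 SE, adjusted p = 8.3e-09, and -3.08 ± 0.23 without replicate 3). F13a1, a chain of coagulation factor XIII, fell from 1077 and 1168 to 140.3, 86.55 and 181.8 (-3.10 ± 0.23, adjusted p = 1.5e-08, and -3.34 ± 0.22 without replicate 3). Pcsk1, a prohormone convertase, fell from 538.3 and 637.1 to 136.7, 97.27 and 16.21, so that replicate 3 was the lowest library (-3.25 ± 0.54, and -2.33 without it). Shank3, a synaptic scaffold, Arhgef17, an exchange factor of small GTPases, and Klhl4 fell by 2.63, 2.61 and 2.51 on the log2 scale. All were called without replicate 3 as well.

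**Figure D4:**
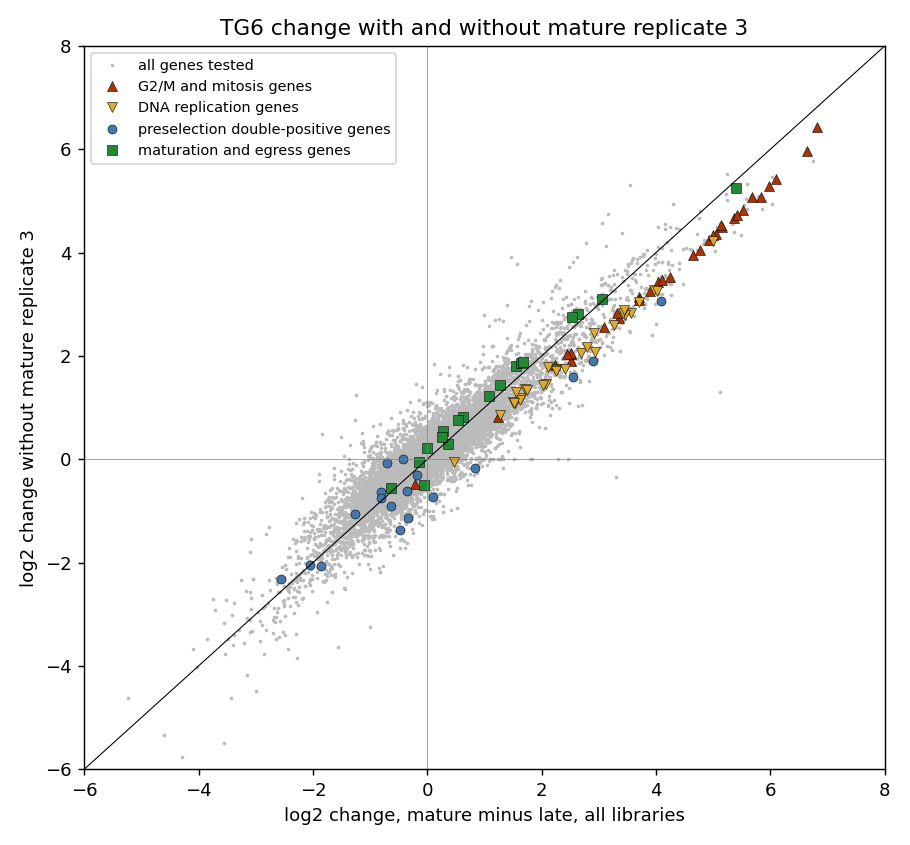
Log2 change of each tested gene (mature minus late) with all libraries (horizontal axis) and without mature replicate 3 (vertical axis), with the line of equality. G2/M and DNA replication genes lie below the line and maturation genes mostly above it; medians of the 2 division lists go from 4.44 to 3.74 and from 2.26 to 1.74.

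Of the 304 genes called only without replicate 3, those with the largest changes are described. Zfp704 stood at 756.6 and 570.6 late and at 183.9, 139.7 and 1288 mature (-2.03 ± 0.37 without replicate 3, and -1.03 ± 0.59 with it). Myo6, an unconventional myosin, was at 173.5 and 172.8 late and 43.23, 59.62 and 292.8 mature, and Itga9, an integrin chain, at 82.74 and 143.8 late and 16.09, 14.56 and 129.4 mature. Among the higher genes, Abcb1a, a multidrug transporter, rested on 1 library, at 184.7, 6155 and 131.4 in mature replicates 1, 2 and 3 against 65.98 and 54.47 late. Gm38246, a gene model, was at 190.9, 256.1 and 85.81 in the mature libraries and 59.71 and 60.95 in the late ones. The remaining gene has a clone name only and also had its lowest mature value in replicate 3.

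The late-to-mature change was next set against that of the F5 line. Only 19 genes (0.116% of those tested) differed by limma's interaction contrast at an adjusted p under 0.05, 15 with the larger change in TG6, and 884 genes had an unadjusted p under 0.05. Without TG6 mature replicate 3, 34 genes (0.208%) were called. With the replicate number as a block, which pairs the F5 libraries, 35 were called, all 19 among them. Igfbp4, encoding a binding protein of insulin-like growth factors at chr11:99041244-99054392, rose in TG6 from 135 and 148.9 to 3447, 3849 and 4226. In F5 it went from 28.09, 54.51 and 44.59 to 107.7, 91.42 and 89.5, and the changes differed by 3.54 ± 0.58 (SE, adjusted p = 0.0069). Ly6c2 remained at or below 16.15 in all late and mature F5 libraries, and the difference was 4.30 ± 0.63 (adjusted p = 0.004). Gpr55, a lipid-sensing G protein-coupled receptor, was at 13.7 and 23.59 late and 248.4, 258.1 and 153.9 mature in TG6 and between 8.088 and 18.34 in F5, a difference of 3.56 ± 0.53. Cd101, an inhibitory surface glycoprotein, also rose more in TG6, by 2.16 ± 0.32. Il2rb went the other way. It rose in F5 from 181.7, 83.65 and 89.97 to 3089, 1820 and 2200, and the TG6 change was smaller by 3.12 on the log2 scale (difference -3.12 ± 0.45, adjusted p = 0.004). By the TG6 counts given above, Il2rb was already far higher in TG6 than in F5 at the late stage. The mature ranges of the lines overlapped.

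Against OT-1, 192 genes (1.17%) differed in their change, 149 of them with a positive signed difference (TG6 minus OT-1). Without TG6 mature replicate 3 the count was 532 (3.25%), and with only the groups compared it was 129. With the replicate block it was 542, with 190 of the 192 among them. Of the 192 genes, 60 were among the 75 cytosolic ribosomal protein genes. The median change of that list was 0.88 in TG6, 0.53 in F5 and 0.24 in OT-1, and the median of the TG6 minus OT-1 differences was 0.65. Levels of the list in F5 and OT-1 at each stage are not given here. The study reports ribosome and translation gene sets ranked OT-1 above F5 above TG6 at early and late positive selection. Whether a starting level accounts for the smaller OT-1 change was not tested. Without TG6 mature replicate 3 the number was again 60, but without TG6 late replicate 2 it was 23, with a median difference of 0.62. Against F5, 1 ribosomal protein gene was called.

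Pcsk1 had the largest difference from OT-1 among the named genes. It fell in TG6, whereas in OT-1 it rose from 16.01, 23.4 and 13.72 to 182.8, 137.3 and 185.1, a difference of -6.45 ± 0.73 (SE, adjusted p = 0.00024). Without TG6 mature replicate 3 the difference was -5.53. Il18r1, the IL-18 receptor chain, was at 137.8 and 156 late and 102, 130.8 and 52.79 mature in TG6 and was not called there, but rose in OT-1 from 200.4, 201.8 and 123.2 to 1102, 901.3 and 821 (difference -3.16 ± 0.50). Adam12, a metalloprotease, and Ddr1, a collagen receptor kinase, differed by -2.90 and -2.42. Plac8 rose in TG6 from 76.68 and 64.49 to 813.9, 888.7 and 1127, whereas in OT-1 it was already at 1598 to 2077 at the late stage and at 2412 to 2984 in mature cells (difference 3.18 ± 0.52). Fam101b, a regulator of the actin cytoskeleton, likewise started at 165.4 and 129.8 in TG6 and at 1006 to 1148 in OT-1 (difference 2.73 ± 0.44). Ly6c2 rose more in TG6 than in OT-1 as well, by 3.42 ± 0.63. For Igfbp4 the difference was 2.49 ± 0.58, but OT-1 lay above TG6 at both stages, at 1997, 1071 and 1479 late and 7111, 7199 and 6779 mature. With 1 library left out, that difference was called only when the library was TG6 mature replicate 3 or OT-1 late replicate 2. Since the lines differ in receptor, Rag genotype and MHC haplotype at once, these cannot be told apart as sources of a difference. Both comparisons share the 5 TG6 libraries.

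**Figure D5:**
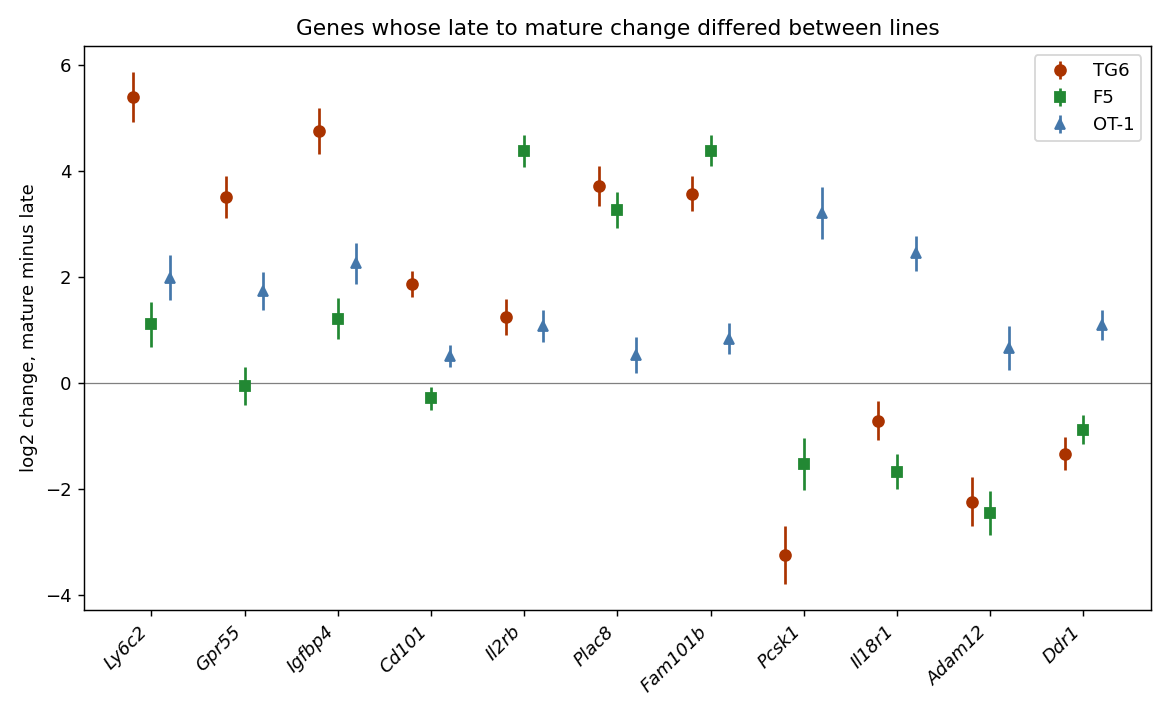
Log2 change (mature minus late) in TG6 (circles), F5 (squares) and OT-1 (triangles) for the 11 genes named by the difference between lines, with bars for the standard error of limma. TG6 has the highest point for Ly6c2, Gpr55, Igfbp4 and Cd101 and the lowest for Pcsk1, where OT-1 lies at 3.20 and TG6 at -3.25.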

How the data were processed

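RNA-seq was performed on sorted thymocytes of TG6, F5 and OT-1 mice at 3 stages, sequenced in bulk. Per the labels and the study's methods, the authors used Trimmomatic 0.32 for trimming, Bowtie2 2.3.2 for alignment to mm10, RSEM 1.2.31 for quantification and DESeq2 for normalization. The deposited signal is a table of normalized counts, which are not whole numbers. In units of the commonest low value, 42.4% to 44.2% of values above 0 were whole (tolerance 0.01), so reads were not recovered and no count test was run. Read depth per library is thus not known here, and the totals above are of normalized counts. Normalization to a common scale hides any change in total RNA per cell.

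Values were tested as log2(value + 1) with limma 3.58.1 (R 4.3.3), empirical Bayes with a mean-variance trend, in all 26 libraries with 9 group means and 17 residual degrees of freedom, so that the spread of the groups of 2 and 3 was shared over all. Genes were kept where 2 or more libraries reached 10. Tests were two-sided, with Benjamini-Hochberg adjustment over all 16372 genes and a call under 0.05. Differences between lines were interaction contrasts of the same fit. The script was tested on simulated data. Members and gene lists were chosen with earlier results of these data known. Lists are described by counts and medians without a test of the list.

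Genes were named by a fixed rule: 8 per direction with the largest change, called with and without mature replicate 3, groups not overlapping and a higher mean of at least 100, leaving out receptor segments, pseudogenes and model names; key members and up to 4 called members per list; 4 per direction for each difference between lines; and 3 per direction called only without replicate 3. Kif23, B2m, Cxcr3, Tbx21, Bst2, Mcm5, Itgb7, Ncr1 and Tcrg-C1 were added after their values were seen. Folds against late levels of at most 3 are lower bounds against that floor. Alternatives were the pseudocount (0.1 and 5), the filter (none, or a mean of at least 50), scaling (totals, quantiles), the libraries fitted, the trend, array weights, a replicate block and leaving out each library. By the correlation of deviations from the group means, replicate numbers paired the F5 libraries (0.106 to 0.340 over 9 of 9 pairs) but not those of TG6 (2 of 7 pairs over 0.1) or OT-1 (5 of 9). Positions are from GENCODE vM21 (GRCm38, the assembly of mm10) and promoters from RefSeq (GRCm38.p6). Some genes that the rule selects are not reported here.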

Additional observations from a re-analysis of the deposited data

Results flagged for a closer look

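The results here are those whose late-to-mature change differed between TG6 and another line by the interaction contrast. Groups of 2 or 3 libraries are too small for a check of single outlying values. Against F5, 19 genes differed. The named ones were Ly6c2 (change in TG6 minus change in F5 of 4.30 on the log2 scale), Gpr55 (3.56), Igfbp4 (3.54), Cd101 (2.16) and Il2rb (-3.12). Against OT-1, 192 genes differed, with Ly6c2 at 3.42, Plac8 at 3.18, Fam101b at 2.73 and Igfbp4 at 2.49 in one direction. In the other were Pcsk1 at -6.45 (-5.53 without TG6 mature replicate 3), Il18r1 at -3.16, Adam12 at -2.90 and Ddr1 at -2.42. Each of these differences was called with and without TG6 mature replicate 3, but 4 of the 13 were not called without TG6 late replicate 2 (Igfbp4 in both comparisons, Cd101 and Adam12), 3 without TG6 late replicate 1 (Igfbp4 in both and Gpr55) and 5 when only the groups compared were fitted (Ly6c2, Gpr55, Cd101 and Il2rb against F5, and Adam12). The difference of Igfbp4 from OT-1 was also lost without the variance trend and when TG6 mature replicate 1 or 2, or any 1 OT-1 library other than late replicate 2, was left out. The causes of these differences were not tested.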

How the results depend on the processing

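The count of genes called between late and mature TG6 cells, 3655, fell to 631 when only these 5 libraries were fitted and rose to 5731 with array weights, which gave mature replicate 3 a weight of 0.141 against 3.69 and 0.987 for replicates 1 and 2. Leaving out 1 library gave 1878 to 4002, the lowest without late replicate 2 (2117 without late replicate 1). For F5, 19 became 43 with a pseudocount of 5, 38 without a filter, 3 with only the groups compared, 87 with array weights and 35 with a replicate block, and 4 to 34 with 1 library left out (4 without TG6 late replicate 2, 12 without TG6 late replicate 1, 34 without TG6 mature replicate 3). For OT-1, 192 became 129 with only the groups compared, 1859 with array weights and 542 with the block, and 72 to 532 with 1 library left out (72 without TG6 late replicate 2, 532 without TG6 mature replicate 3). The cause was not tested. The block gave 4009 genes for the TG6 change. Deviations of same-numbered late and mature TG6 libraries correlated at 0.036 and 0.046, so the numbers do not pair them, whereas 9 of 9 same-numbered pairs of F5 libraries and 5 of 9 of OT-1 were over 0.1. The 13 named differences between lines were all called with the block, but 5 were lost with only the groups compared, 4 without TG6 late replicate 2, 3 without TG6 late replicate 1 and 1 without the variance trend (Igfbp4 against OT-1).

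Of 113 named genes, none that was called with all libraries reversed under any of these settings. Uncalled genes changed sign as follows: Cd8a to -0.12 with quantile normalization; Tmie to -0.10 with total scaling, -0.11 with quantiles and between -0.23 and 0.43 over left-out libraries; Nr4a1 to -0.56 with array weights, -0.48 with the block and between -0.67 (without mature replicate 3) and 0.73 over left-out libraries; and, with 1 library left out, Runx3 ran from -0.32 to 0.13 and Cd24a from -1.15 to 0.093, the lowest each without mature replicate 3. Fitting only the 5 libraries took 41 of the 113 below the threshold. Among left-out libraries, the late ones took most below it, 19 without late replicate 2 and 17 without late replicate 1, against 6 below and 9 above it without mature replicate 3. With quantile scaling, calls split into 1905 higher and 1951 lower.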
